A study of Drosophila melanogaster with 12 samples.

Results

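The nuclear genes of Drosophila melanogaster whose FlyBase symbols start with ND- encode subunits of respiratory complex I, and all of them were followed across 12 whole-larva RNA-seq libraries. The counts held 17185 gene IDs, of which 40 carried such a symbol. They comprised 34 genes for single subunits and 6 duplicates, which are named after a subunit gene with an added L. Of the 40 genes, 32 had enough counts to be tested and 8 did not: the 6 duplicates, ND-B8 and ND-MNLL. The genes were taken by symbol alone, with no threshold on a measured value.

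Libraries came from 4 genotypes with 3 libraries each, and all larvae were w[1118] animals held for 60 h at 25 ºC after egg collection. Double mutants carried Gpdh1[12] over Gpdh1[14] together with Ldh[16] over Ldh[17], and their controls, the double heterozygotes, carried Gpdh1[12] and Ldh[16] each over a wild-type chromosome. Gpdh1 mutants carried Gpdh1[12] over Gpdh1[14], and their controls, the Gpdh1 heterozygotes, carried Gpdh1[12] over a wild-type chromosome. Every animal therefore had at least 1 mutant copy of Gpdh1, so no group was wild type. The mutations were inherited, so they were not restricted to a tissue, and per the study each library was a pool of whole larvae. The labels stage the animals as mid-L3 larvae, whereas the study's own text calls them mid-L2, and it also names the Gpdh1 alleles differently. Nothing in the labels states that replicates came from separate cultures, so the p-values measure the spread between these libraries.

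Complex I is the largest complex of the mitochondrial electron transport chain. It oxidises NADH in the matrix, passes the electrons through iron-sulfur clusters to ubiquinone, and pumps protons across the inner membrane. Its matrix arm holds the nuclear-encoded core subunits that carry flavin and iron-sulfur clusters, its membrane arm holds core subunits encoded by the mitochondrial genome, and many accessory subunits surround both arms. Gpdh1 and Ldh encode cytosolic enzymes, glycerol-3-phosphate dehydrogenase and lactate dehydrogenase, which both oxidise NADH in larvae. The comparisons here ask how the loss of the 1 enzyme or of both is accompanied by change in the transcripts for this complex.

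Gene counts were between 22339930 and 26605495 per library, and the ND- genes together took between 0.450% and 0.573% of them. Levels are given as CPM, counts scaled to a fixed library size after TMM normalisation, which sets libraries so that most genes are level. Gpdh1 itself stood at 61.9, 61.5 and 60.8 CPM in double mutants, against 497, 445 and 506 CPM in double heterozygotes, and at 232, 288 and 284 CPM in Gpdh1 mutants, against 520.2, 517 and 412 CPM in Gpdh1 heterozygotes. Ldh stood at 3.95, 3.60 and 4.24 CPM in double mutants, against 445, 439 and 457 CPM in double heterozygotes. Each targeted gene was thus lower in the mutants that the labels name for it. Gpdh1 was lower in double mutants than in Gpdh1 mutants (means of 61.4 and 268 CPM), although the labels give both the same Gpdh1 alleles. Ldh, not mutated in the Gpdh1 groups, stood at 379, 405 and 414 CPM in Gpdh1 mutants, against 511, 495 and 521 CPM in Gpdh1 heterozygotes. The cause of either was not tested. The 3 double mutant libraries were closer to each other than those of any other group, with a biological coefficient of variation over genes of 0.0373, against 0.198 in double heterozygotes, 0.0981 in Gpdh1 mutants and 0.134 in Gpdh1 heterozygotes. Double mutant replicates 1 and 2 still differed by more than counting noise, with a chi-square per degree of freedom of 2.51 (1 would be counting noise alone), and were kept apart. Double heterozygote replicate 2 stood furthest from its own group, at 91.3 and 127 on this measure.

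Most tested nuclear genes for complex I subunits were lower in both mutants. In double mutants 31 of the 32 tested genes were lower than in double heterozygotes and none was higher, by edgeR's quasi-likelihood test at an adjusted p under 0.05 over all genes. Across all 10650 genes tested in that contrast 25.9% were lower and 25.3% were higher. In Gpdh1 mutants 27 of 32 were lower than in Gpdh1 heterozygotes and none was higher, where 20.2% of 10592 genes were lower and 17.9% were higher. The shifts were small: the median log2 fold change of the members was -0.36 in double mutants (all genes: -0.03) and -0.30 in Gpdh1 mutants (all genes: 0.01), so the median member was 22.3% and 18.8% lower. None of the 32 genes was lower by more than 1 on the log2 scale, as 3.57% of all genes were in double mutants and 4.44% in Gpdh1 mutants. In pools of whole larvae, fewer cells of a type that is rich in these transcripts and less of the transcripts per cell cannot be told apart.

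The libraries separated on this set of genes. Summed over the 40 genes, the level was between 4180 and 4445 CPM in double mutants and between 5427 and 5585 CPM in double heterozygotes. It was between 4406 and 4657 CPM in Gpdh1 mutants and between 5314 and 5735 CPM in Gpdh1 heterozygotes. All 3 mutant libraries lay below all 3 control libraries for 30 of the 32 tested genes in the double mutant contrast and for 31 in the Gpdh1 contrast, against 31.4% and 27.6% of all genes. The exceptions were ND-AGGG and ND-B17 in the double mutant contrast and ND-51 in the Gpdh1 contrast.

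**Figure D1:**
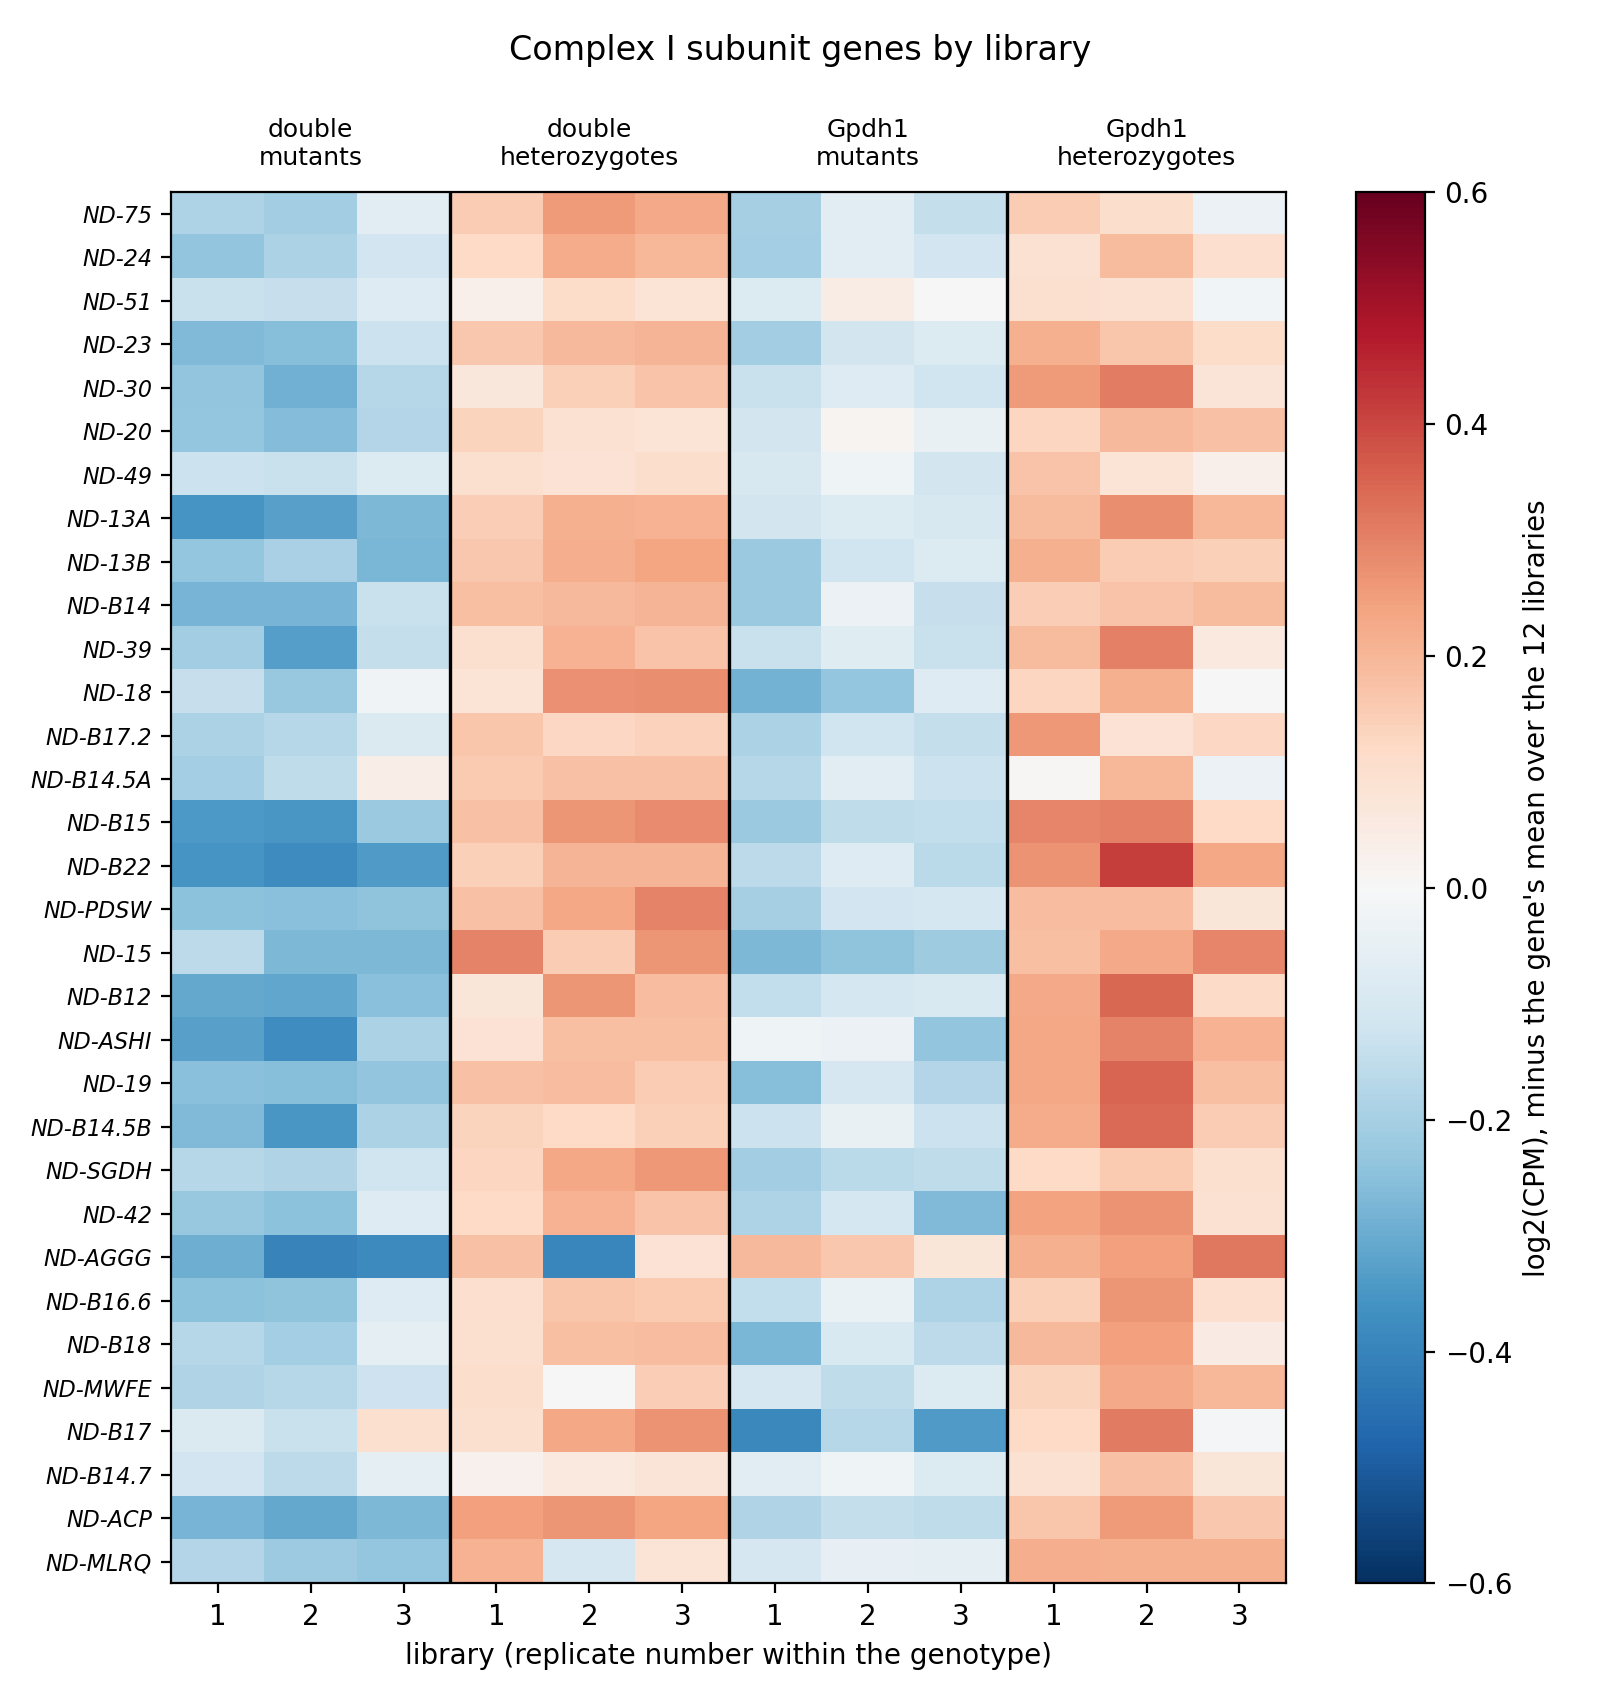
Each cell is the log2 CPM of 1 tested ND- gene (rows, 32 genes grouped by role) in 1 library (columns, 3 per genotype) minus the mean of that gene over the 12 libraries. Most cells are blue (below the mean) in both mutants and red (above it) in both heterozygotes. ND-AGGG is an exception, red in the Gpdh1 mutants and blue in replicate 2 of the double heterozygotes.

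With library totals in place of TMM, 15 members were lower in double mutants and 10 in Gpdh1 mutants, with medians of -0.20 and -0.14, while the median of all genes moved to 0.13 and 0.17. The shares of all genes given above hold for the main fits with TMM, not for the settings in this paragraph. The members' median lay 0.34 below that of all genes for double mutants and 0.31 below it for Gpdh1 mutants, with TMM and with library totals alike. A change of scaling moves all genes of a library together, so this gap had to stay nearly the same. It is therefore no check of the calls. Since the double mutant libraries were so close to each other, they were also summed into 1 library, whose spread was then assumed to be that of the double heterozygotes. Under that setting 7 of the 31 members were still lower (ND-13A, ND-13B, ND-19, ND-ACP, ND-B14, ND-B15 and ND-B22) and the median was -0.37. Of the 31 and 27 calls, 25 and 20 held in every fit that left out 1 library.

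The core subunits of the NADH-oxidising module come first along the path of the electrons. ND-51, whose human and bovine counterparts bind NADH and the flavin, is encoded at 2L:6060842-6062757, minus strand (BDGP6.54, as are all positions given here). It had 218, 217 and 226 CPM in double mutants, against 244, 258 and 253 CPM in double heterozygotes, and 226, 246 and 238 CPM in Gpdh1 mutants, against 255, 255 and 236 CPM in Gpdh1 heterozygotes. It changed least of the core genes, with a log2 fold change of -0.19 ± 0.05 (SE, n = 3 each, edgeR adjusted p = 0.0137) in double mutants, and the Gpdh1 groups overlapped at -0.07 ± 0.06 (edgeR adjusted p = 0.429). The call in double mutants was lost without replicate 1 or 2 of the double mutants, and with library totals the value in Gpdh1 mutants turned to 0.09.

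ND-75, at X:8248651-8251687, minus strand, encodes the large iron-sulfur subunit that takes electrons from this module into the rest of the arm. Its level was 296, 291 and 322 CPM in double mutants, against 374, 402 and 394 CPM in double heterozygotes, and 293, 321 and 305 CPM in Gpdh1 mutants, against 374, 362 and 329 CPM in Gpdh1 heterozygotes. Neither pair of groups overlapped. The log2 fold change of -0.37 in double mutants passed the test. The value of -0.21 in Gpdh1 mutants narrowly did not (edgeR adjusted p = 0.0537). It did pass without replicate 3 of the Gpdh1 heterozygotes, with upper quartile scaling and with all 12 libraries in 1 fit. ND-24, at X:17632089-17633509, plus strand, encodes a further iron-sulfur subunit of the module. It had 94.5, 97.7 and 103 CPM in double mutants, against 121, 129.9 and 128 CPM in double heterozygotes, and 96.8, 106 and 103 CPM in Gpdh1 mutants, against 119, 127 and 119.6 CPM in Gpdh1 heterozygotes. Both contrasts passed the test for ND-24, at -0.36 and -0.25 on the log2 scale, and the call in Gpdh1 mutants was lost without replicate 1 or 3 of the Gpdh1 mutants. The module as a whole thus had 3 of 3 genes lower in double mutants and 1 of 3 in Gpdh1 mutants.

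The core subunits of the quinone-reducing module hand the electrons to ubiquinone. ND-49, at 4:568296-571554, minus strand, forms the quinone pocket together with ND-20 in the mammalian enzyme. It stood at 271, 269.6 and 279.7 CPM in double mutants, against 317, 314 and 319 CPM in double heterozygotes, and at 277, 291 and 274 CPM in Gpdh1 mutants, against 333, 314 and 302 CPM in Gpdh1 heterozygotes. Like ND-51, it changed little, with -0.21 in double mutants, which passed, and -0.17 in Gpdh1 mutants, which did not (edgeR adjusted p = 0.0681), although neither pair of groups overlapped. With all 12 libraries in 1 fit, ND-49 was called lower in Gpdh1 mutants too. ND-20, at X:15985473-15986808, minus strand, carries the last iron-sulfur cluster of the chain. Its level was 120.4, 118 and 125 CPM in double mutants, against 155, 151 and 149 CPM in double heterozygotes, and 131, 143 and 137 CPM in Gpdh1 mutants, against 154, 161 and 159 CPM in Gpdh1 heterozygotes. ND-20 fell in both, with log2 fold changes of -0.32 and -0.21 and no overlap between groups. Its call in Gpdh1 mutants was lost in 4 of 6 fits that left out a library, and with library totals both calls were lost.

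ND-23, at 3R:15836048-15837117, minus strand, encodes a subunit with iron-sulfur clusters that link the arm's chain to the quinone site. It had 98.7, 99.4 and 108 CPM in double mutants, against 132, 136 and 137 CPM in double heterozygotes, and 103, 109.8 and 112 CPM in Gpdh1 mutants, against 137, 133 and 128 CPM in Gpdh1 heterozygotes. Its log2 fold change in double mutants was the lowest of the 7 core genes, -0.40 (edgeR adjusted p = 0.00130), with -0.29 in Gpdh1 mutants. ND-30, at 3L:3158485-3159578, minus strand, a core subunit without a cluster of its own, had 120.0, 116 and 126 CPM in double mutants, against 149, 156 and 159 CPM in double heterozygotes. In the single mutant contrast it had 129, 134 and 130.1 CPM in Gpdh1 mutants, against 169, 175 and 149 CPM in Gpdh1 heterozygotes. ND-30 fell by 0.36 and 0.32, with no overlap between groups in either contrast.

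**Figure D2:**
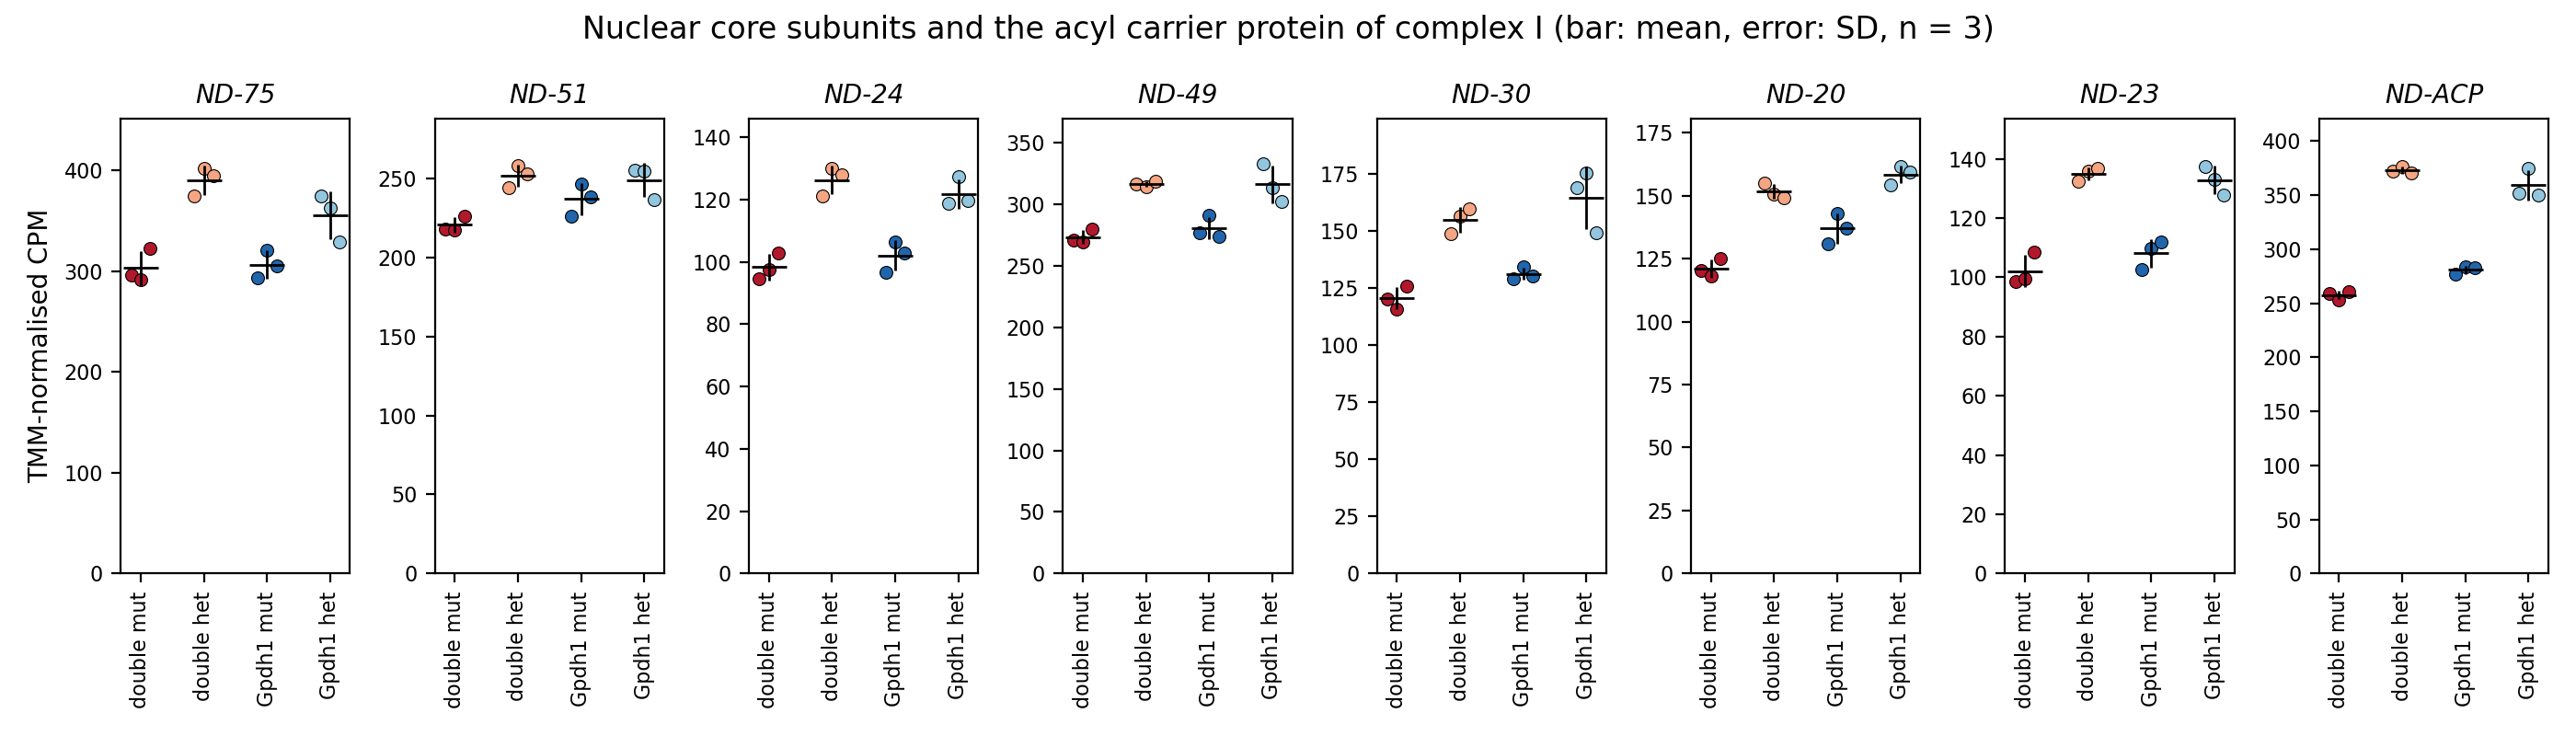
TMM-normalised CPM of the 7 nuclear core subunit genes and ND-ACP in each library (points), with the mean (bar) and SD (error bar) of 3 libraries per genotype; each axis starts at 0. The double mutants lie below the double heterozygotes for all 8 genes, and only ND-51 has Gpdh1 mutant and Gpdh1 heterozygote libraries that overlap.

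Across the 7 core genes the median log2 fold change was -0.36 in double mutants, with 7 of 7 lower, and -0.21 in Gpdh1 mutants, with 4 of 7 lower. For the other 25 tested members it was -0.39, with 24 of 25 lower, and -0.31, with 23 of 25 lower. Whether core and other subunits differ was not tested. With library totals in place of TMM, the core genes ND-20, ND-24, ND-49, ND-51 and ND-75 were no longer called in double mutants. In Gpdh1 mutants, ND-20, ND-23, ND-24 and ND-30 were no longer called under that scaling.

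Accessory subunits of the matrix arm stabilise the modules and, in mammals, include assembly checkpoints such as the counterpart of ND-18. All 7 tested genes of this group were lower in double mutants (median -0.39), and 6 of 7 in Gpdh1 mutants (median -0.30). ND-13A, whose mammalian counterpart binds zinc, is encoded at 2L:5099177-5100288, minus strand, and its level was 70.9, 72.4 and 75.3 CPM in double mutants, against 101, 105 and 105 CPM in double heterozygotes, and 84.0, 85.7 and 84.9 CPM in Gpdh1 mutants, against 104, 110.0 and 104 CPM in Gpdh1 heterozygotes. It fell by 0.51 and 0.32, and the double mutant libraries also lay below all 3 Gpdh1 mutant libraries. ND-13A shares 12.4% of its exon length with CG4230 on the opposite strand. ND-13B, at 3L:10693184-10694108, minus strand, had 93.5, 96.2 and 91.1 CPM in double mutants, against 123, 128 and 129.6 CPM in double heterozygotes, and 94.3, 101 and 104 CPM in Gpdh1 mutants, against 127, 122 and 121 CPM in Gpdh1 heterozygotes. The groups of both contrasts were apart, at -0.44 and -0.31. ND-B14.5A was the member of this group that did not pass in Gpdh1 mutants, at -0.18 (edgeR adjusted p = 0.102).

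ND-ACP encodes the mitochondrial acyl carrier protein, which works in fatty acid and lipoic acid synthesis in mitochondria and is also bound to complex I by partner subunits. Located at 3L:1329949-1331631, plus strand, it had 259, 253 and 261 CPM in double mutants, against 372, 377 and 370.2 CPM in double heterozygotes. The values were 277, 284 and 282 CPM in Gpdh1 mutants, against 352, 375 and 350.4 CPM in Gpdh1 heterozygotes. The log2 fold change of -0.53 ± 0.04 (SE, n = 3 each, edgeR adjusted p = 0.000123) was among the 3 lowest in double mutants, and it was -0.35 ± 0.06 (edgeR adjusted p = 0.00364) in Gpdh1 mutants. ND-B22 and ND-B14 belong to the LYR family, whose mammalian members hold the acyl carrier protein in the complex. ND-B22, at 2L:13370103-13371110, minus strand, had 93.3, 91.9 and 94.3 CPM in double mutants, against 132, 137 and 138 CPM in double heterozygotes, and 107, 113 and 107 CPM in Gpdh1 mutants, against 144, 159 and 140.0 CPM in Gpdh1 heterozygotes. It was among the 3 lowest in both contrasts, at -0.54 and -0.44, and its groups were well apart. Of its exon length, 26.1% is shared with CG31855 on the opposite strand, and the strand setting of the counting is not given in the sources used here. ND-B14 changed by -0.42 and -0.30, and 12.9% of its exon length is shared with CG12942, likewise on the opposite strand.

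The accessory subunits of the membrane arm formed the largest group, with 15 of 16 tested genes lower in double mutants (median -0.38) and 15 of 16 in Gpdh1 mutants (median -0.34). ND-B15, at 2R:14756516-14757072, plus strand, fell most in double mutants. It had 82.4, 82.1 and 89.5 CPM in double mutants, against 118, 126 and 127 CPM in double heterozygotes, and 89.7, 94.0 and 94.3 CPM in Gpdh1 mutants, against 128, 129 and 114 CPM in Gpdh1 heterozygotes. This came to -0.55 ± 0.06 (SE, n = 3 each, edgeR adjusted p = 0.000474) in double mutants and -0.41 in Gpdh1 mutants. ND-15, at 2L:114726-156030, plus strand, whose mammalian counterpart faces the intermembrane space, fell most in Gpdh1 mutants. Its level was 129.7, 120.2 and 120.2 CPM in double mutants, against 178, 161 and 174 CPM in double heterozygotes, and 120.2, 122 and 125 CPM in Gpdh1 mutants, against 164, 169.5 and 178 CPM in Gpdh1 heterozygotes. The log2 fold change was -0.47 in each contrast, and the edgeR adjusted p was 0.00105 for double mutants and 0.00116 for Gpdh1 mutants. ND-15 shares 15.9% of its exon length with CG3436 and Pus10, counting both strands, and 0.2% on its own strand. ND-PDSW, at 2L:3466157-3467334, plus strand, had 152, 151 and 152 CPM in double mutants, against 204, 212 and 221 CPM in double heterozygotes, and 157, 166 and 167 CPM in Gpdh1 mutants, against 205, 205 and 189.6 CPM in Gpdh1 heterozygotes. It fell by 0.48 and 0.29, with tight double mutant libraries.

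At the other end, ND-B14.7, at 2R:21025078-21026086, plus strand, changed least of all members in double mutants. It had 150.0, 146 and 157 CPM in double mutants, against 165, 169 and 172 CPM in double heterozygotes, and 155, 160.0 and 154 CPM in Gpdh1 mutants, against 173, 184 and 171 CPM in Gpdh1 heterozygotes. The groups did not overlap, and -0.16 and -0.17 passed with edgeR adjusted p-values of 0.0311 and 0.0490, but these calls were lost in 4 of 6 and in 6 of 6 fits that left out a library. ND-B17, at 2L:15749319-15751078, minus strand, had 74.4, 72.1 and 84.4 CPM in double mutants, against 84.4, 92.9 and 95.3 CPM in double heterozygotes, where the groups touched, and 60.5, 70.3 and 62.5 CPM in Gpdh1 mutants, against 85.8, 98.0 and 78.7 CPM in Gpdh1 heterozygotes, where they did not. It fell by 0.24 in double mutants (edgeR adjusted p = 0.0457) and by 0.44 in Gpdh1 mutants (edgeR adjusted p = 0.0118), the reverse order of most members. The call in double mutants was lost with RLE, upper quartile and library total scaling, with at least 10 counts in every library, with all 12 libraries in 1 fit, with either summing of double mutant libraries and in 4 of 6 fits that left out a library.

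ND-AGGG, at 3L:24976254-24977118, plus strand, was the least abundant tested member and did not pass in either contrast. It had 7.40, 6.88 and 6.96 CPM in double mutants, against 10.2, 6.92 and 9.62 CPM in double heterozygotes, with replicate 2 of the double heterozygotes inside the range of the double mutants. It had 10.4, 10.1 and 9.55 CPM in Gpdh1 mutants, against 10.5, 10.8 and 11.3 CPM in Gpdh1 heterozygotes. The log2 fold changes were -0.33 ± 0.15 (edgeR adjusted p = 0.109) and -0.11 ± 0.07 (edgeR adjusted p = 0.261). Without replicate 2 of the double heterozygotes, ND-AGGG was called lower in double mutants, and with library totals the value in Gpdh1 mutants turned to 0.04.

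ND-MLRQ was named as a complex I subunit, but its mammalian counterpart has been found in cytochrome c oxidase. At 3L:23339326-23345936, plus strand, it had 327, 318 and 315 CPM in double mutants, against 428, 345 and 391 CPM in double heterozygotes, and 345, 357 and 355 CPM in Gpdh1 mutants, against 430.1, 429.7 and 429 CPM in Gpdh1 heterozygotes. Groups did not overlap, and it fell by 0.28 in both mutants. The double heterozygotes were widely spread for this gene, and its call in double mutants was lost in 5 of 6 fits that left out a library. ND-MWFE, a small subunit near the quinone site in mammals, at 2R:13158666-13160190, plus strand, had 74.1, 74.6 and 76.9 CPM in double mutants, against 90.3, 84.1 and 92.9 CPM in double heterozygotes, and 78.1, 75.6 and 79.2 CPM in Gpdh1 mutants, against 92.1, 98.2 and 96.2 CPM in Gpdh1 heterozygotes. It fell by 0.25 and 0.30. ND-MWFE shares 35.0% of its exon length with other genes, 15.2% on its own strand, so reads of its neighbours could count towards it or be set aside.

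**Figure D3:**
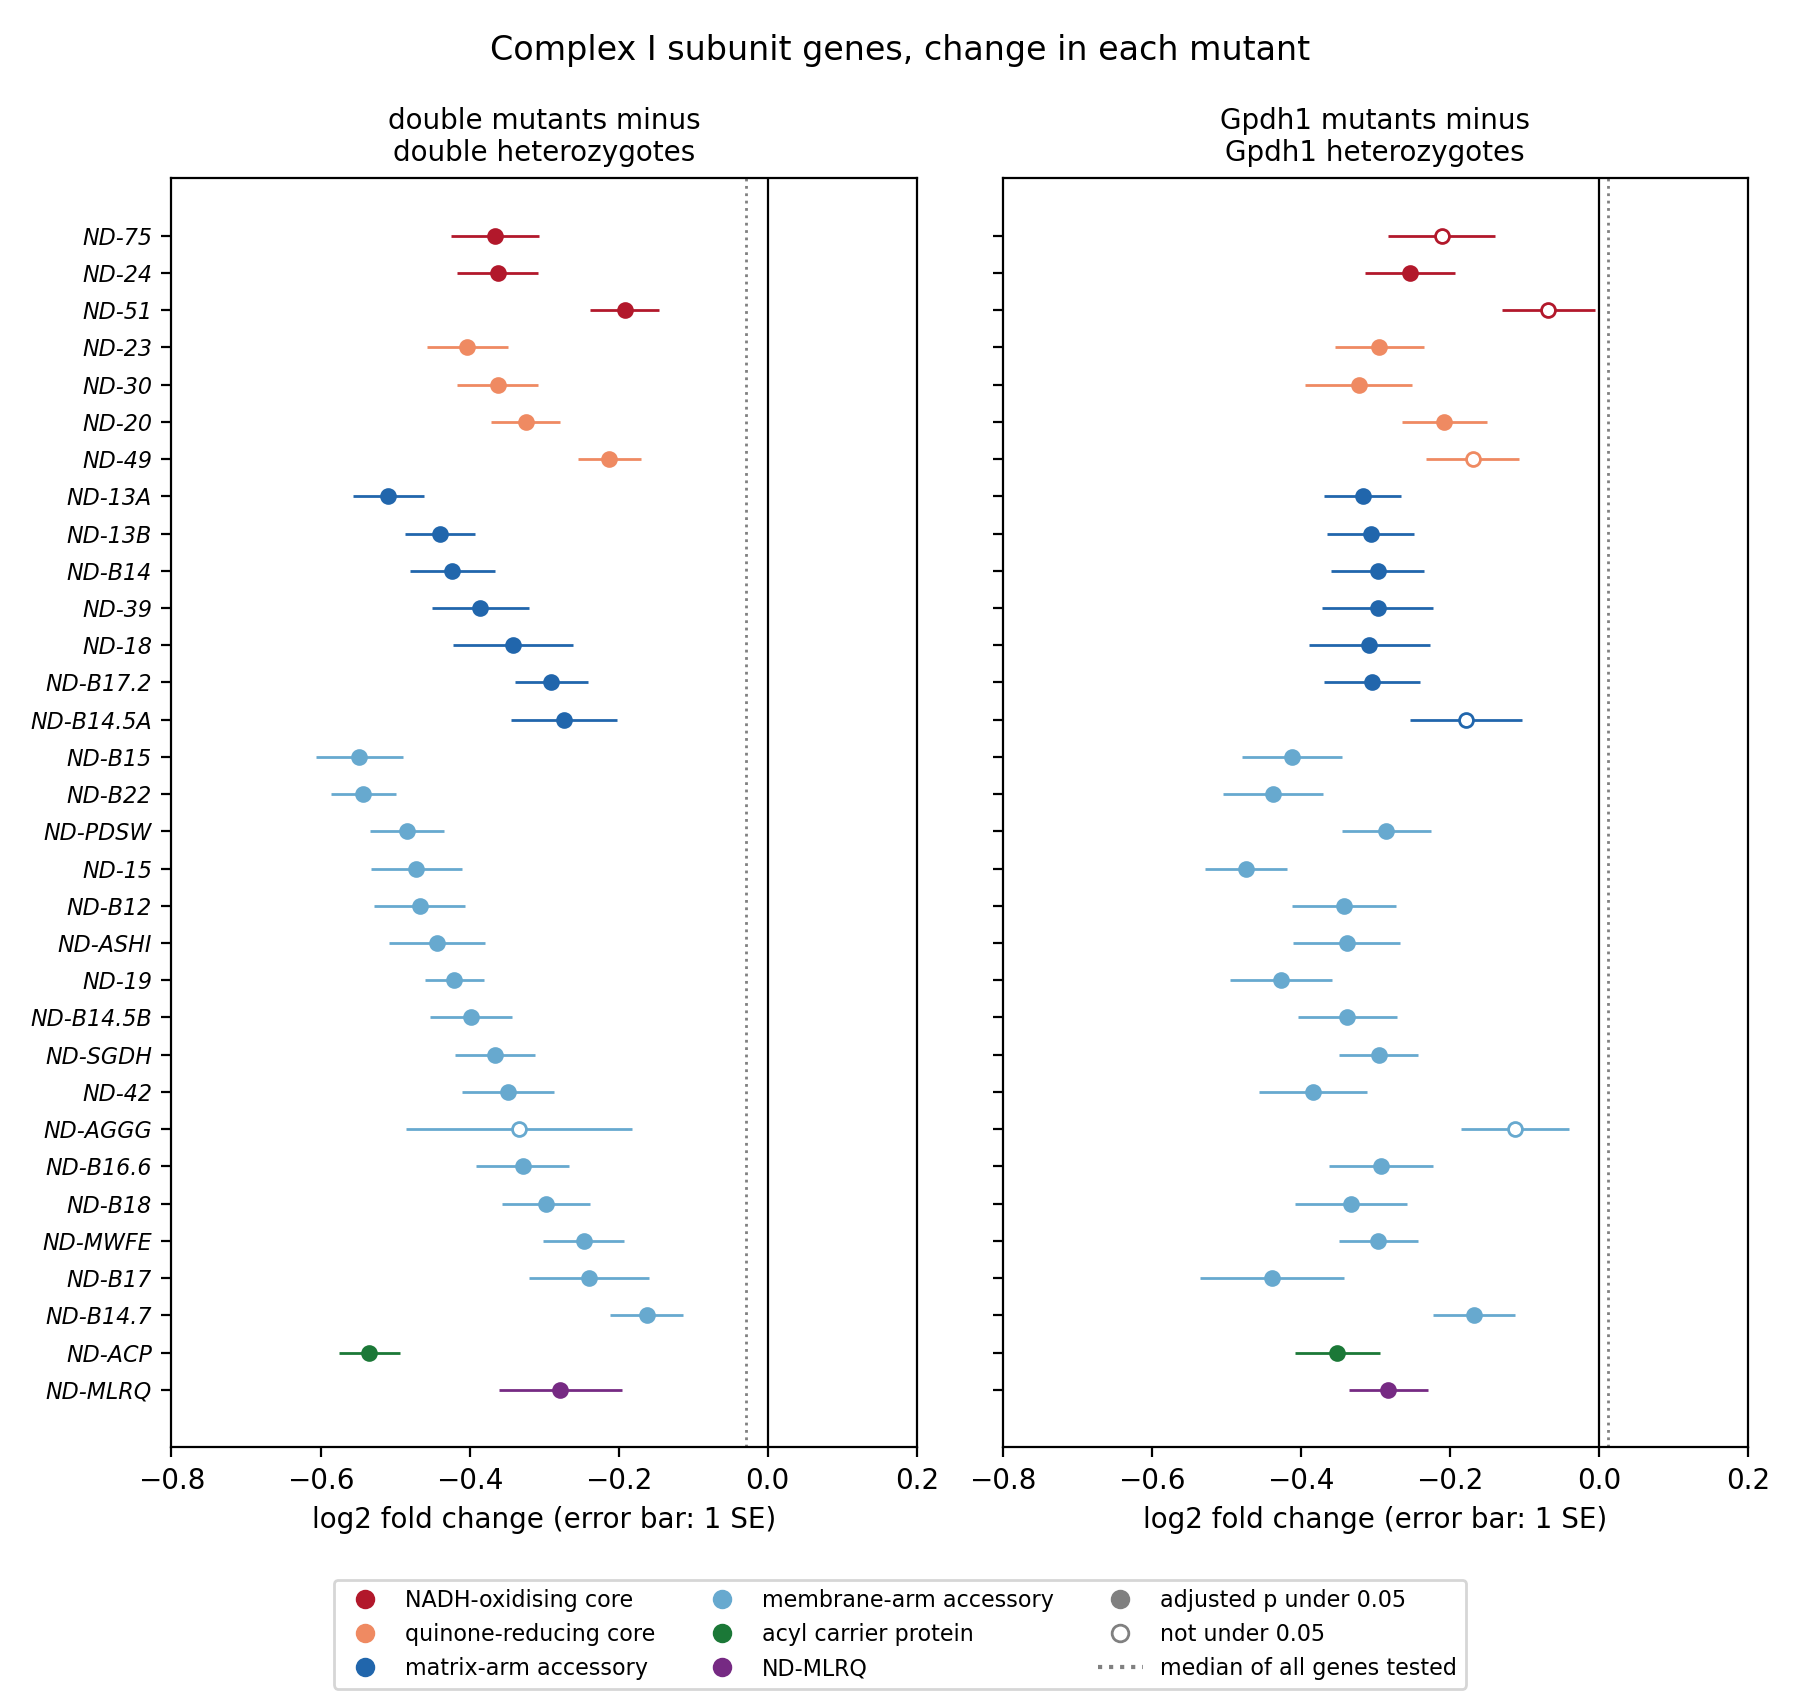
Log2 fold change (points) with 1 SE (lines) of the 32 tested ND- genes, coloured by role, in double mutants against double heterozygotes (left) and in Gpdh1 mutants against Gpdh1 heterozygotes (right); filled points have an adjusted p under 0.05. Every point lies left of 0 and of the dotted median of all genes (-0.03 and 0.01), between -0.55 and -0.16 on the left and between -0.47 and -0.07 on the right.

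The members moved within a narrow band. The SD of their log2 fold changes was 0.103 in double mutants and 0.0934 in Gpdh1 mutants, against 0.807 and 0.697 over all genes tested. The members were far more abundant than most genes, with a median level of 126 CPM against 20.9 CPM over all genes tested, and per kilobase of exon a median of 146 against 8.98 CPM per kb. The contrasts have no library in common, and 27 of the 32 members were called lower in both, against 1148 of the 10448 genes tested in both. Over the 32 members the fold changes of the contrasts had a Pearson r of 0.596 and a Spearman rho of 0.574, and over all of those 10448 genes these were 0.376 and 0.459. These correlations run across genes, which share their libraries and are not independent replicates.

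On the scale of CPM per kb of exon, which allows levels of different genes to be set side by side, the tested members were between 12.4 and 693 over the 12 libraries. ND-MLRQ led with 693 CPM per kb, followed by ND-ACP with 377, while ND-AGGG had 12.4 and the next lowest, ND-ASHI, 61.3. The 7 core genes were between 105 CPM per kb (ND-24) and 186 (ND-49). Exons of the tested members were short, with a median length of 857.5 bases (477 to 2634) against 2004 bases over all genes tested. Members were spread over the genome, with 9 on 2L, 8 on 2R, 9 on 3L, 4 on 3R, 1 on chromosome 4 and 9 on the X. The 8 tested genes on the X had medians of -0.34 and -0.27, against -0.39 and -0.31 for the other 24.

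The 6 duplicates had few or no counts in every library. ND-20L and ND-B14.5AL had 0 counts in all 12 libraries, which allows up to 3 counts per library, and ND-24L, ND-49L and ND-51L2 summed to 5, 5 and 2 counts over all 12. ND-51L1 reached 11 counts in replicate 1 of the double mutants and in replicate 1 of the Gpdh1 mutants, with 39 counts in all. It had 11, 1 and 4 counts in double mutants, against 0, 2 and 1 in double heterozygotes, and 11, 2 and 3 counts in Gpdh1 mutants, against 0, 0 and 4 in Gpdh1 heterozygotes, too few for a test. In flies several duplicates of nuclear genes for mitochondrial proteins are known for expression in the testis, but no library here is from testis, so whether these 6 are of that kind was not tested. The duplicates of ND-20, ND-24 and ND-B14.5A sit on chromosome 3 while their parents are on the X, ND-49L is on 3R with its parent on chromosome 4, and ND-51L1 and ND-51L2 are on 2R with their parent on 2L. In their exon structure 4 of the 6 have a single exon. The 12 testis markers summed to between 2.31 and 2.84 CPM in double mutants, between 2.21 and 4.04 CPM in double heterozygotes, between 1.82 and 3.77 CPM in Gpdh1 mutants and between 2.11 and 2.61 CPM in Gpdh1 heterozygotes.

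Another pair of genes, which are not duplicates, was too low as well. ND-B8 had 0 to 6 counts per library and 47 in all, and ND-MNLL had 0 counts in all 12. The whole exon length of ND-MNLL is shared with CG45089 on the same strand in the annotation, and ND-B8 shares 15.4% of its exon length with Gs1l on the opposite strand. The part of these overlaps in the low counts was not tested, and the counts are not read as a lack of transcript.

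The difference between the contrasts asks whether these genes changed further in double mutants than in Gpdh1 mutants, each against its own heterozygotes. It does not isolate the loss of Ldh. The double heterozygotes already carried an Ldh mutant copy, and Gpdh1 averaged 61.4 CPM in double mutants and 268 CPM in Gpdh1 mutants. In the fit of all 12 libraries no member passed, where 13.5% of 10880 genes were lower and 12.0% higher, and DESeq2 likewise called 0. The median difference was -0.09 (all genes: -0.01), 23 of 32 members had the more negative value in the double mutant contrast, and 3 had an unadjusted p under 0.05. The smallest adjusted p belonged to ND-13A, with a difference of -0.19 (95% interval -0.33 to -0.05, edgeR adjusted p = 0.0515), then ND-ACP with -0.18 (0.0681) and ND-PDSW with -0.19 (0.0818). ND-13A and ND-ACP passed when replicate 2 of the Gpdh1 heterozygotes was left out, at -0.22 and -0.21 (edgeR adjusted p = 0.0412 and 0.0413). ND-AGGG passed without replicate 2 of the double heterozygotes, at -0.37 (edgeR adjusted p = 0.02).

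The controls of the contrasts were close for these genes. Between double heterozygotes and Gpdh1 heterozygotes no member passed in edgeR or DESeq2, where 12.3% of all genes were lower and 14.1% higher in edgeR, and 2 members had an unadjusted p under 0.05. The median was -0.01 (all genes: 0.03), and the smallest adjusted p-values were those of ND-AGGG at -0.28 (0.106), ND-B22 at -0.12 (0.126), ND-MLRQ at -0.15 (0.144) and ND-MWFE at -0.10 (0.159), all by edgeR. With library totals 8 members were higher in double heterozygotes, with a median of 0.12 beside 0.15 over all genes, and the shares above are those with TMM. ND-AGGG and ND-MLRQ passed as lower when replicate 1 of the double heterozygotes was left out, at -0.39 and -0.22 (edgeR adjusted p = 0.0446 and 0.0352).

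Between the mutants, 6 members were lower in double mutants than in Gpdh1 mutants and none was higher, or 18.8% of the 32, near the 20.0% of all genes that were lower, while 18.9% were higher. These were ND-AGGG (-0.50), ND-B22 (-0.22), ND-13A (-0.22), ND-ASHI (-0.20), ND-20 (-0.18) and ND-B14.5B (-0.17), with edgeR adjusted p-values from 0.00299 (ND-13A) to 0.0479 (ND-B14.5B). The first 3 of them were called in every fit that left out a library, and none was called with the double mutant libraries summed into 1. The median was -0.09 (all genes: 0.01), and only these 3 were called lower without replicate 2 of the Gpdh1 mutants or without replicate 1 or 2 of the double mutants. ND-B17 went the other way, at 0.26 (edgeR adjusted p = 0.0522), and was called higher with DESeq2, with RLE, upper quartile and library total scaling, with a stricter count filter and without replicate 2 of the Gpdh1 mutants (0.33, edgeR adjusted p = 0.0331).

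The 3 subunit genes without the ND- prefix (NP15.6, NdufA3 and NdufV3, added after the annotation was read) were examined too. All 3 were lower in double mutants (NP15.6 -0.27, NdufA3 -0.32, NdufV3 -0.41) and 2 of 3 in Gpdh1 mutants. Of 9 matched assembly factors, which help to build the complex and are not part of it, 7 were lower in double mutants (median -0.32) and 3 in Gpdh1 mutants (median -0.10), with ECSIT lowest by adjusted p in both (-0.49 and -0.36).

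Of the 7 subunit genes in the mitochondrial genome, none passed in double mutants (median -0.24), and in Gpdh1 mutants mt:ND4L (1.52), mt:ND2 (0.78) and mt:ND4 (0.34) were higher and mt:ND3 (-0.37) was lower. mt:ND2 had 124, 111 and 39.4 CPM in double mutants, against 139, 79.5 and 138 CPM in double heterozygotes, and 140.5, 100.5 and 169 CPM in Gpdh1 mutants, against 94.5, 63.0 and 81.6 CPM in Gpdh1 heterozygotes. Replicate 3 of the double mutants was the lowest of its group for all 7 of these genes, and whether RNA was selected for poly(A) tails is not given in the sources used here.

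**Figure D4:**
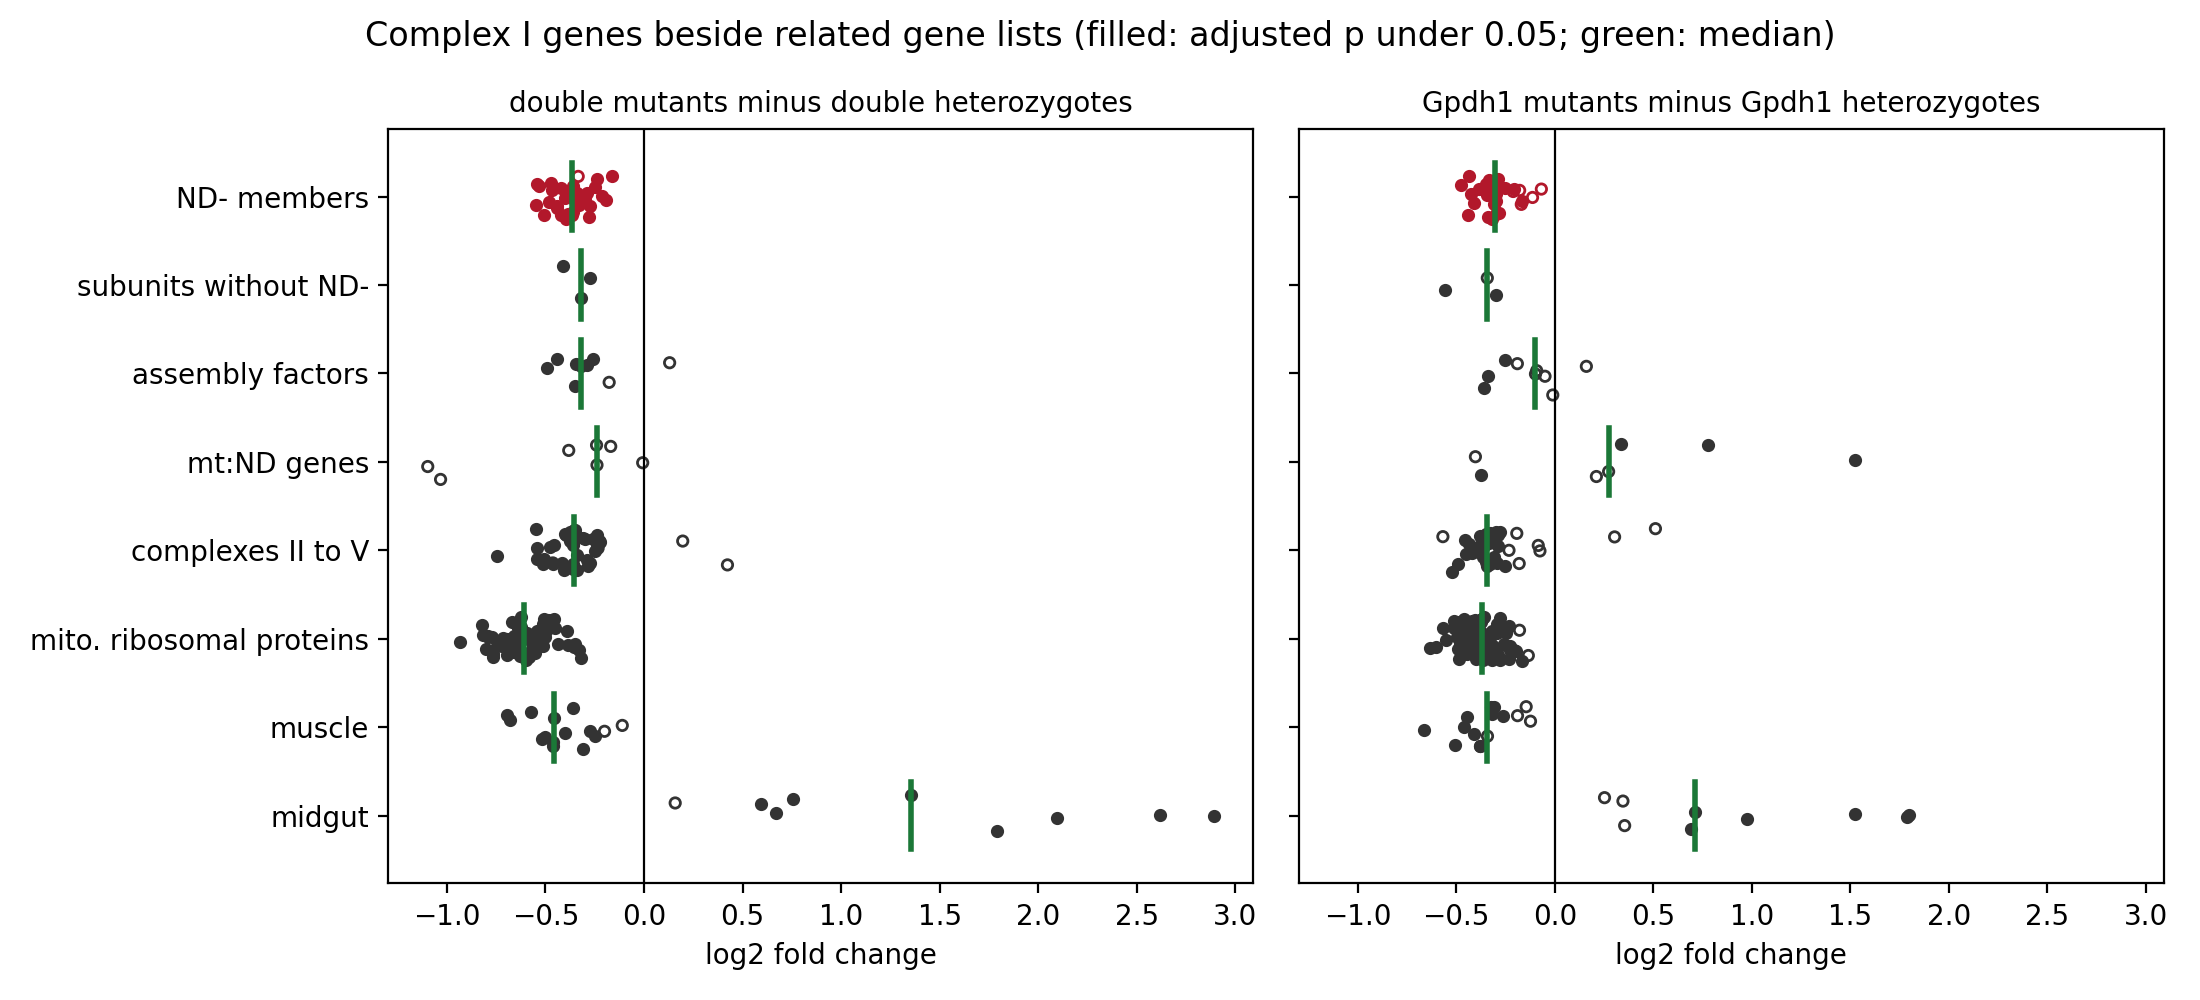
Log2 fold change of each tested gene (points, filled where the adjusted p is under 0.05) in the ND- genes (red) and in 7 related lists, in double mutants against double heterozygotes (left) and Gpdh1 mutants against Gpdh1 heterozygotes (right), with the median of each list in green. The ND- genes, complexes II to V and the mitochondrial ribosomal proteins lie almost wholly below 0, with medians of -0.36, -0.36 and -0.61 on the left, and the midgut markers lie above it. All 15 muscle markers lie below 0 too, with medians of -0.46 on the left and -0.34 on the right.

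Most nuclear genes for complexes II to V and for mitochondrial ribosomal proteins were lower alongside complex I. Of 40 tested genes for complexes II to V, 34 were lower in double mutants (median -0.36), and of 39 tested 31 were lower in Gpdh1 mutants (median -0.35), with none higher in either. Examples were ATPsynC, for the proton-carrying ring of ATP synthase (-0.54 in double mutants), and UQCR-6.4, for a small subunit of complex III (-0.49 in Gpdh1 mutants). All 71 tested mitochondrial ribosomal protein genes were lower in double mutants (median -0.61) and 68 in Gpdh1 mutants (median -0.37). In this list 30 of 71 genes were lower in the difference between the contrasts, where no ND- gene was, and 29 were higher in double heterozygotes than in Gpdh1 heterozygotes.

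Known regulators of mitochondrial genes gave no common direction. TFAM, which packages and transcribes mitochondrial DNA, fell by 0.41 in double mutants (edgeR adjusted p = 0.00125), as did Dref by 0.25 (0.00249), while Myc rose by 0.45 (0.0160). In Gpdh1 mutants ERR, a nuclear receptor that drives larval glycolytic genes, fell by 0.26 (0.0413) and ewg, the counterpart of a human factor for respiratory genes, rose by 0.30 (0.0222). The other members of this list of 8 did not pass in the same contrasts.

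Markers of tissues moved with the genotypes as well. The 15 muscle markers summed to between 53188 and 54107 CPM in double mutants, against between 65863 and 73297 CPM in double heterozygotes, with 13 of 15 lower and a median of -0.46. They summed to between 53894 and 60734 CPM in Gpdh1 mutants, against between 73732 and 76811 CPM in Gpdh1 heterozygotes, with 11 of 15 lower and a median of -0.34. Muscle is a tissue rich in mitochondria, but how much of the complex I transcripts came from muscle was not measured in these whole-larva pools. The 9 midgut markers went the other way, with 8 higher in double mutants (sum 2724 to 2874 CPM, against 902 to 1020 CPM in double heterozygotes) and 6 higher in Gpdh1 mutants (1060 to 1167 CPM, against 447 to 846 CPM in Gpdh1 heterozygotes). The 8 fat body markers, which include the serum proteins of late larvae, summed to 4058 to 4316 CPM in double mutants, against 6327 to 11251 CPM in double heterozygotes, and to 3900 to 4906 CPM in Gpdh1 mutants, against 9800.0 to 15893 CPM in Gpdh1 heterozygotes. Its genes went both ways, with 4 lower and 2 higher of 6 tested in double mutants and 4 lower and 2 higher of 7 tested in Gpdh1 mutants. Most of the mutant sums came from apolpp, with means of 4107 CPM in double mutants and 4252 CPM in Gpdh1 mutants. The serum protein gene Lsp1beta had 9.05, 9.24 and 8.62 CPM in double mutants, against 2065, 397 and 2582 CPM in double heterozygotes. It had 27.6, 96.2 and 121 CPM in Gpdh1 mutants, against 4722, 2019 and 2648 CPM in Gpdh1 heterozygotes. Fbp1 and Lpin had higher means in both mutants. Of 8 neuronal markers 5 were higher in double mutants and 4 in Gpdh1 mutants, with sums of 270.5 to 311 CPM in double mutants, against 225 to 246 CPM in double heterozygotes, and of 269.6 to 298 CPM in Gpdh1 mutants, against 232 to 238 CPM in Gpdh1 heterozygotes. No marker of these lists was at 0 in all libraries, and the part of tissue make-up or stage in the fall of the complex I genes was not tested.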

How the data were processed

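RNA from pools of whole larvae was sequenced. Per the submitters' processing notes, reads were handled with bcl2fastq 2.20.0.422, cutadapt 1.12, HISAT2 2.1.0 and HTSeq 0.9.0. The authors deposited 1 file per library with whole-number counts per FlyBase gene ID, not normalised; the genome build and strand setting of these counts are not given in the sources used here, and the paper's methods name other software. The 5 summary lines were removed: reads without a gene were 0.736% to 1.04%, ambiguous reads 1.97% to 2.17% and multiply aligned reads 8.06% to 14.7% of the total. Symbols, positions and exon lengths came from the BDGP6.54 annotation by gene ID (17059 of 17185 IDs matched).

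Each mutant was compared with its own heterozygotes on 6 libraries in R 4.3.3 with edgeR 4.0.16 (filterByExpr with minimum count 10, TMM, quasi-likelihood F test, Benjamini-Hochberg over all genes tested, call at adjusted p under 0.05 with no fold limit). The other comparisons used all 12 libraries with 1 coefficient per group. The scripts were tested on simulated data. Counting floors (3 counts) cover counting error only. Members and lists were chosen with earlier results of these data known, so the list has counts and medians and no test of its own. Every member may be named; values per library are given for the core genes, ND-ACP, the 3 lowest and 3 highest fold changes per mutant contrast, and up to 4 smallest adjusted p-values in the differences. Of 28 assembly factor names 9 matched. The germ line and dosage compensation lists (4 and 2 genes matched) had 2 lower and 1 higher and then 0 lower and 1 higher in double mutants, and 0 lower and 1 higher and then 0 lower and 2 higher in Gpdh1 mutants. Alternatives were other scalings, DESeq2 1.42.0, other filters, a fold limit of 1 (log2), a replicate block, leaving out each library, and summed double mutant libraries. Same-numbered libraries were checked for pairing and did not deviate together. Promoter sequences were not analysed here.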

Additional observations from a re-analysis of the deposited data

Results flagged for a closer look

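No ND- gene met a criterion for a closer look, and groups of 3 libraries are too small for a search for single deviating samples. For 4 genes set beside them, the change in double mutants and the change in Gpdh1 mutants differed by a direct test of the difference (edgeR on all 12 libraries).

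CG8067, listed as an assembly factor, differed by -0.34 (edgeR adjusted p = 0.00831): it had 18.8, 18.3 and 17.7 CPM in double mutants, against 22.4, 23.9 and 23.5 CPM in double heterozygotes, and 20.0, 22.2 and 20.5 CPM in Gpdh1 mutants, against 21.1, 20.6 and 21.6 CPM in Gpdh1 heterozygotes. TFAM differed by -0.26 (edgeR adjusted p = 0.0190), with 46.2, 49.0 and 48.5 CPM in double mutants, against 60.0, 66.4 and 63.8 CPM in double heterozygotes, and 45.7, 47.8 and 48.1 CPM in Gpdh1 mutants, against 53.2, 51.7 and 51.5 CPM in Gpdh1 heterozygotes. The double heterozygotes were also 0.28 above the Gpdh1 heterozygotes for TFAM (edgeR adjusted p = 0.00272), while the mutants differed by 0.02.

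ERR differed by 0.44 (edgeR adjusted p = 0.0104), with 18.9, 21.7 and 19.7 CPM in double mutants, against 17.3, 18.4 and 17.7 CPM in double heterozygotes, and 15.9, 15.2 and 14.4 CPM in Gpdh1 mutants, against 18.5, 19.4 and 16.7 CPM in Gpdh1 heterozygotes. mt:ND4L differed by -2.55 (edgeR adjusted p = 0.0135), with 4.92, 4.20 and 0.984 CPM in double mutants, against 7.67, 4.91 and 8.03 CPM in double heterozygotes, and 11.6, 8.11 and 14.2 CPM in Gpdh1 mutants, against 5.30, 3.22 and 3.26 CPM in Gpdh1 heterozygotes. Replicate 3 of the double mutants had the lowest mt:ND4L level of all 12 libraries.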

How the results depend on the processing

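Library totals in place of TMM gave 15 ND- genes lower in double mutants (31 with TMM, median -0.20), 10 in Gpdh1 mutants (27 with TMM, median -0.14), 8 higher between the controls (median 0.12) and 1 lower and 1 higher between the mutants (median 0.0427). This scaling also turned ND-51 and ND-AGGG in Gpdh1 mutants to 0.0901 and 0.0441, and ND-B22 and ND-MWFE between the controls to 0.00712 and 0.0263. A fold limit of 1 (log2) left 0 genes lower in double mutants, in Gpdh1 mutants and between the mutants. Summing the double mutant libraries into 1 left 7 genes lower in double mutants and 0 between the mutants, and summing only replicates 1 and 2, chosen after seeing the data, left 26 and 3. Between the mutants, upper quartile scaling gave 3 lower, and upper quartile scaling, RLE scaling, DESeq2 and a minimum of 10 counts in every library each gave 1 higher. Leaving out each library gave 25 to 31 genes lower in double mutants, 21 to 26 in Gpdh1 mutants, 0 to 2 in the difference of the contrasts, 0 to 2 between the controls, and 3 to 6 lower and 0 to 1 higher between the mutants. Replicate numbers did not pair the libraries: deviations of same-numbered mutant and control libraries correlated at 0.007, -0.009 and 0.020 for the double mutants and at -0.186, -0.218 and -0.098 for the Gpdh1 mutants. With a replicate block 30 genes were lower in double mutants, 25 in Gpdh1 mutants and 4 between the mutants. Over all alternatives, 220 counts and medians stayed within 1.5 times the reported count or within 1 SD between replicates of the reported median, and 27 did not. The 220 include counts listed above and counts of 0 that stayed 0. The cause of the changes with library totals and with single libraries left out was not tested. For the 8 untested genes this depth allows no statement on change.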
